A study of Mus musculus with 32 samples.

Results

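The 38 genes described here are proliferation and DNA replication genes listed by symbol, which mark dividing cells in the vomeronasal organ (VNO). They were taken by gene name from the deposited count and normalized count tables, and all 38 were found among the 49671 genes listed. No measured value was used to pick them from the tables. They comprise Mki67 and Top2a as general marks of dividing cells, 9 replication genes, 3 genes of nucleotide supply and repair, 7 cyclins and mitotic kinases, 4 genes of the spindle checkpoint and the anaphase-promoting complex, 5 genes of the centromere and 8 genes of the spindle and cytokinesis.

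Vomeronasal sensory neurons are replaced throughout life. Progenitors at the edges and the base of the sensory epithelium divide and give rise to neurons, and cycling cells can also be found among supporting, vascular, connective tissue and blood cells. In a dividing cell the MCM helicase and its loader Cdc6 prepare the DNA for replication in G1 and S phase, and cyclins with Cdk1, the mitotic kinases, the kinetochore and the spindle kinesins act in G2 and mitosis. Many of the G2 and mitosis genes are controlled by promoter elements called CHR and CCAAT box, and many of the S phase genes by E2F sites.

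RNA was measured in the vomeronasal epithelium of 32 individual mice, with 4 females and 4 males of each of 4 inbred strains, at 42 days of age. The strains, as labelled, were C57/BL6 (B6), 129S6/SVEV (129), SJL/J (SJL) and SWR/J (SWR), the last 2 being of Swiss origin. No mouse carried an engineered allele or received a treatment according to the labels, and a library holds RNA of 1 mouse. Libraries are named here by strain, sex and a number in the library description, which was read as the sequencing lane. Whether it marks anything else is not stated, and it is the same as the replicate number used here. The libraries held between 5106398 and 18640871 counted reads (median 11461344), of which the 38 genes together took 0.0296 to 0.0829%. In such whole-tissue RNA, fewer cells of a type and less RNA per cell cannot be told apart.

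The tissue label was checked with marker genes. Omp, the marker of mature sensory neurons, had a mean normalized count of 18202. Of 6 progenitor markers, Sox2, which supporting cells express as well, was the most abundant with a mean of 2030. The proneural factor Neurog1 reached at most 19.6 normalized counts in any library, while Neurod1 lay between 26.7 and 98.9, Insm1 between 107 and 287 and Hes6 between 129 and 245. Of these markers, Neurog1 and Neurod1 were thus present at low levels. Of the 5 progenitor markers that were tested, 0 differed between B6 and 129 (52.8% of all genes). No measure here assigns the reads of the 38 genes to progenitors rather than to other dividing cells.

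Stretches upstream of the RefSeq start are shown for 7 of the genes, because these genes are described below either as dividing-cell markers (Mki67, Top2a, Cdk1), as genes with their own strain pattern (Bub1b, Kif23) or as replication genes (Mcm6, Cdc6). They are RefSeq sequences on GRCm38.p6, read 5′ to 3′ along the strand of the gene, and come from the B6 reference, so that they show no strain differences. Each has 250 bases up to the start, except that annotated exon bases were removed from those of Cdk1, which leaves 224 bases ending 26 before the start, and Cdc6, which leaves 169 bases within the annotated gene. Capitals mark CHR (TTTGAA), the CCAAT box (CCAAT) and 4 E2F words (TTTCCCGC, TTTCGCGC, TTTGCCGC and TTTGGCGC) on either strand.
Mki67, chr7:135716380-135716629, minus strand: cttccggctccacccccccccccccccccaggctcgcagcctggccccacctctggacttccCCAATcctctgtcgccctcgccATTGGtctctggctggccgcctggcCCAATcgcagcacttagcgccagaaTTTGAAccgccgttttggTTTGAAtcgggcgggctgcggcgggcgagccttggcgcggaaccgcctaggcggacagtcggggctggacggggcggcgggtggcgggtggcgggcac
Top2a, chr11:99024190-99024439, minus strand: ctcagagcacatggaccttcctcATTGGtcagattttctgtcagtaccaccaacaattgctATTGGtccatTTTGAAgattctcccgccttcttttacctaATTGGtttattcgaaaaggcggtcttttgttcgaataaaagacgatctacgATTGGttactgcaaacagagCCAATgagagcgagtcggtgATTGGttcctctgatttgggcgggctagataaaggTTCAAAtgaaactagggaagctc
Cdk1, chr10:69352939-69353162, minus strand: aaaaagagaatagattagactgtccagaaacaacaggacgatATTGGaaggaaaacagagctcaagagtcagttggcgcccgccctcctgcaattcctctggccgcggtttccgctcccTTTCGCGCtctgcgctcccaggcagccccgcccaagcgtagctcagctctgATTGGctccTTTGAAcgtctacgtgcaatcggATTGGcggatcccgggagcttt
Bub1b, chr2:118597961-118598210, plus strand: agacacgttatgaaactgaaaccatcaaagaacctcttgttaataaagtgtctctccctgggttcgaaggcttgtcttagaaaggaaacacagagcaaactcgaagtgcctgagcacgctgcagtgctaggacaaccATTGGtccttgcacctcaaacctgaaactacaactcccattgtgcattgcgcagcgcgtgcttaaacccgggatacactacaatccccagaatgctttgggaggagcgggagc
Kif23, chr9:61946800-61947049, minus strand: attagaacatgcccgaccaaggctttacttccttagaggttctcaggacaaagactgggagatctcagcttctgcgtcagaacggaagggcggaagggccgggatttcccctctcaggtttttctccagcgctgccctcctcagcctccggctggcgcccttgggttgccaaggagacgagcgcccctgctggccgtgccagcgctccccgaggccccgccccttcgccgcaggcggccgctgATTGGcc
Mcm6, chr1:128359706-128359955, minus strand: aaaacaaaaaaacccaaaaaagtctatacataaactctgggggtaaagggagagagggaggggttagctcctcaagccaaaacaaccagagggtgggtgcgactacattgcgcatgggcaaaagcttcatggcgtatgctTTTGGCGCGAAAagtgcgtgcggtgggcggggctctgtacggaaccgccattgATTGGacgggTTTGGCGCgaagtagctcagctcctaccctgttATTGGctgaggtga
Cdc6, chr11:98907982-98908150, plus strand: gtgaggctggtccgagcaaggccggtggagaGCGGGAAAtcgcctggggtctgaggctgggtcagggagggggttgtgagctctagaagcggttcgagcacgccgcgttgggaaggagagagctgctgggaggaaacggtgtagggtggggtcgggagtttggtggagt

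In the windows of 250 bases before the start, which the RefSeq table holds for 32 of the 38 genes, the CCAAT box was found in 28 (87.5%), compared with 33.8% of all 32851 windows. Here and below, a gene of the 38 counted if any of its windows held the match. The share of all is over single windows, so the 2 shares are not strictly alike. CHR was found in 11 (34.4% against 16%), and all 11 of these also held a CCAAT box (34.4% against 5.55% for both together). The 11 were Mki67, Top2a, Cdk1, Ccnb2, Cdc20, Cdc45, Ect2, Kif11, Mcm2, Prc1 and Ube2c. An E2F word was found for 5 genes, Cdc6, Cdk1, Mcm5, Mcm6 and Mcm7 (15.6% against 1.86%). In the Mcm6 window 2 of the E2F words overlap. These are matches of letters, not measured sites. Aurkb, Ccna2, Kif20a, Exo1, Tpx2 and Mcm4 have no entry in the table.

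Levels between genes were compared in TPM, a level scaled for exon length and library depth. Hjurp, the chaperone that loads the centromeric histone Cenpa, had by far the highest mean of the 38 (63.3 TPM), followed by Pcna (38.1 TPM), the sliding clamp of DNA polymerase that also serves in DNA repair. The MCM helicase subunits Mcm7, Mcm6 and Mcm4 had 10.5, 9.69 and 9.31 TPM. Mki67, a protein coating the mitotic chromosomes, and Top2a, the topoisomerase that untangles them, had 2.60 and 2.65 TPM. The lowest mean, 0.265 TPM, was that of the repair exonuclease Exo1, the only 1 of the 38 with a library at 0 reads (SJL female 2). A gene such as Hjurp or Pcna therefore stood far above the level of the mitotic markers in the same tissue.

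Did the cell-cycle genes vary among the strains? In an edgeR quasi-likelihood F test over the 4 strains, 32 of the 38 had an FDR under 0.05, where 73.1% of the 18382 genes tested did. The 6 others were Cdk1, Kif20a, Aurkb, Mcm5, Aurka and Cdc20 (FDR 0.0783 to 0.169). B6 had the highest mean of the 4 strains for 28 of the 38, and 129 the lowest for 23. The shares of all genes with these orders were not computed. Among the 38, the strain differences thus ran mostly in 1 direction, with B6 on top, but several genes had patterns of their own.

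B6 and 129 differed in 31 of the 38 genes (52.8% of all genes). Of the 38, 29 were higher in B6 at an FDR under 0.05, while 27.3% of all genes were higher, and 2 were lower (Plk1 and Mcm4), while 25.5% of all genes were lower. With a term for reads of other tissues, described below, 9 were called higher and 1 lower (20.9% of all genes in either direction). With the additional limit of a fold change (FC) above 2, 11 were higher (8.72% of all genes) and 1 was lower (2.40%). The median log2 fold change (LFC) of B6 over 129 was 0.78 over the 38 and 0.021 over all genes. All 8 B6 libraries lay above all 8 of 129 for 5 genes, Bub1b, Hjurp, Mcm6, Pcna and Prc1 (6.51% of all genes), and below them for Plk1 (7.94%).

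SJL and SWR were below B6 in many of the genes. SJL differed from B6 in 25 (45.7% of all genes), with 23 lower (23.4%) and 2 higher (22.3%) and a median LFC of -0.62. With an FC above 2, 5 were lower (5.33%) and 0 higher (2.67%), where 7.99% of all genes passed in either direction, and without SJL male 1 the count was 12. All SJL libraries were below all of B6 for 5 genes, Hjurp, Bub1b, Kif23, Pcna and Ect2 (6.16%), and above them for 0 (6.93%). SWR differed from B6 in 19 (40.9%), all lower (21.1%, against 19.8% higher), with a median LFC of -0.53. Here 4 were lower with an FC above 2 (5.53%, against 2.52% higher and 8.05% in all), and 5 lay below B6 without overlap (5.47%) and 0 above (7.05%).

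Against 129 the picture was mixed. SJL differed from 129 in 9 of the 38 (38.3% of all genes), 6 of them higher (18.9%) and 3 lower (19.4%), and SWR in 16 (41.8%), 10 higher (19.9%) and 6 lower (21.8%). The median LFCs were 0.13 and 0.24. In SJL, Cdc6 and Mcm6 were higher with an FC above 2 (5.61%) and Plk1 and Kif23 lower (2.76%, 8.38% in all). SWR had Mcm6 and Cenpa higher (4.62%) and the same pair lower (3.11%, 7.73% in all). Without overlap, SJL lay above 129 for 3 genes (6.15%) and below for 2 (5.77%), and SWR above for 2 (7.07%) and below for 2 (6.44%). SJL and SWR differed from each other in 5 of the 38 (32.5% of all genes), in 8 without SJL male 1 and in 10 without the 3 libraries described below. These 6 comparisons share libraries and are not independent of each other.

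**Figure D1:**
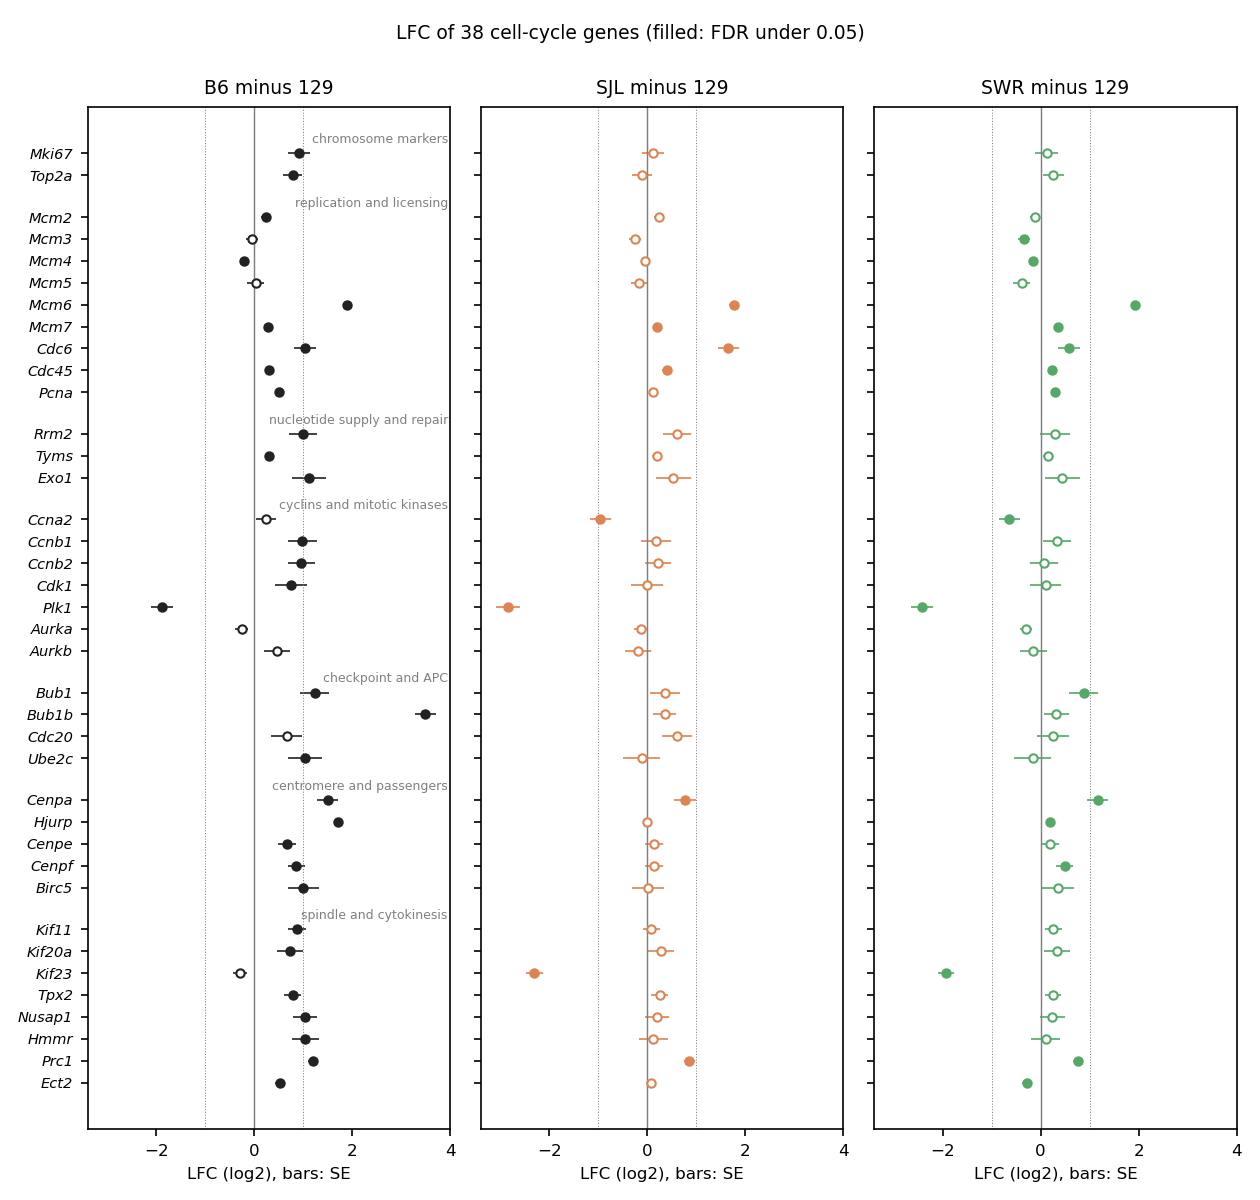
Log2 fold change (x axis, ± SE) of each of the 38 genes (y axis, grouped by role) in B6, SJL and SWR relative to 129, with filled points at an FDR under 0.05 (edgeR). Of the B6 points 33 lie to the right of 0, and Plk1 (-1.88), Kif23 (-0.29), Aurka (-0.26), Mcm4 (-0.21) and Mcm3 (-0.05) to the left, whereas SJL and SWR points scatter around 0 apart from Mcm6, Kif23, Plk1 and a few others.

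Some libraries stood apart from their own strain in these genes and are kept in view below: B6 female 1 was the highest of its strain in 23 of the 38 genes, SJL male 1 in 24 and 129 male 1 in 16. B6 female 1 and 129 male 1 also stood above all other libraries of their strains in basal cell keratins and in gland or neutrophil products. Krt5 was 375 and 412 normalized counts in them, against at most 208 and 170.4 in the 7 others of the strain, and Ltf 53986 and 39159 against at most 9333 and 10494. SJL male 1 did not share the high Ltf (9477, with up to 24461 in the other SJL libraries) but had the highest Neurod1 of its strain (68.5, against at most 43.8). Without these libraries the median LFC of B6 over 129 was 0.75, with 30 of the 38 higher and 3 lower. The removals offset each other, as it was 0.65 without B6 female 1 alone and 0.92 without 129 male 1 alone. Without B6 female 1 alone, the median LFC of SJL over B6 moved from -0.62 to -0.47. That of SWR over B6 moved from -0.53 to -0.39, so that the B6 excess was smaller there.

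The markers of dividing cells showed the B6 excess with overlap between the strains. Mki67 ranged from 65.1 to 182 normalized counts in 129 (median 99.0), from 129 to 359 in B6 (183), from 38.3 to 198 in SJL (110.1) and from 87.7 to 155 in SWR (109.7). Its mean was 197 ± 72.9 (SD, n = 8) in B6 and 106 ± 37.8 in 129. B6 exceeded 129 by an LFC of 0.91 ± 0.22 (SE, FDR 0.000862), and SJL and SWR lay below B6 by LFCs of -0.80 ± 0.22 (FDR 0.00321) and -0.79 ± 0.22 (FDR 0.00411). With the term for reads of other tissues, the call between B6 and 129 was lost (FDR 0.0718), at an LFC of 0.92. Several libraries of the other strains reached the lower B6 values, and the highest value of all came from B6 female 1.

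Top2a ranged from 55.5 to 153 normalized counts in 129 (median 99.1), from 112 to 301 in B6 (166), from 51.1 to 148 in SJL (84.7) and from 93.4 to 148 in SWR (124). Its LFC of B6 over 129 was 0.78 ± 0.20 (FDR 0.00172). With that term the call was lost as well (FDR 0.0528), at an LFC of 0.91. B6 was again the highest strain, and again the ranges overlapped.

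**Figure D2:**
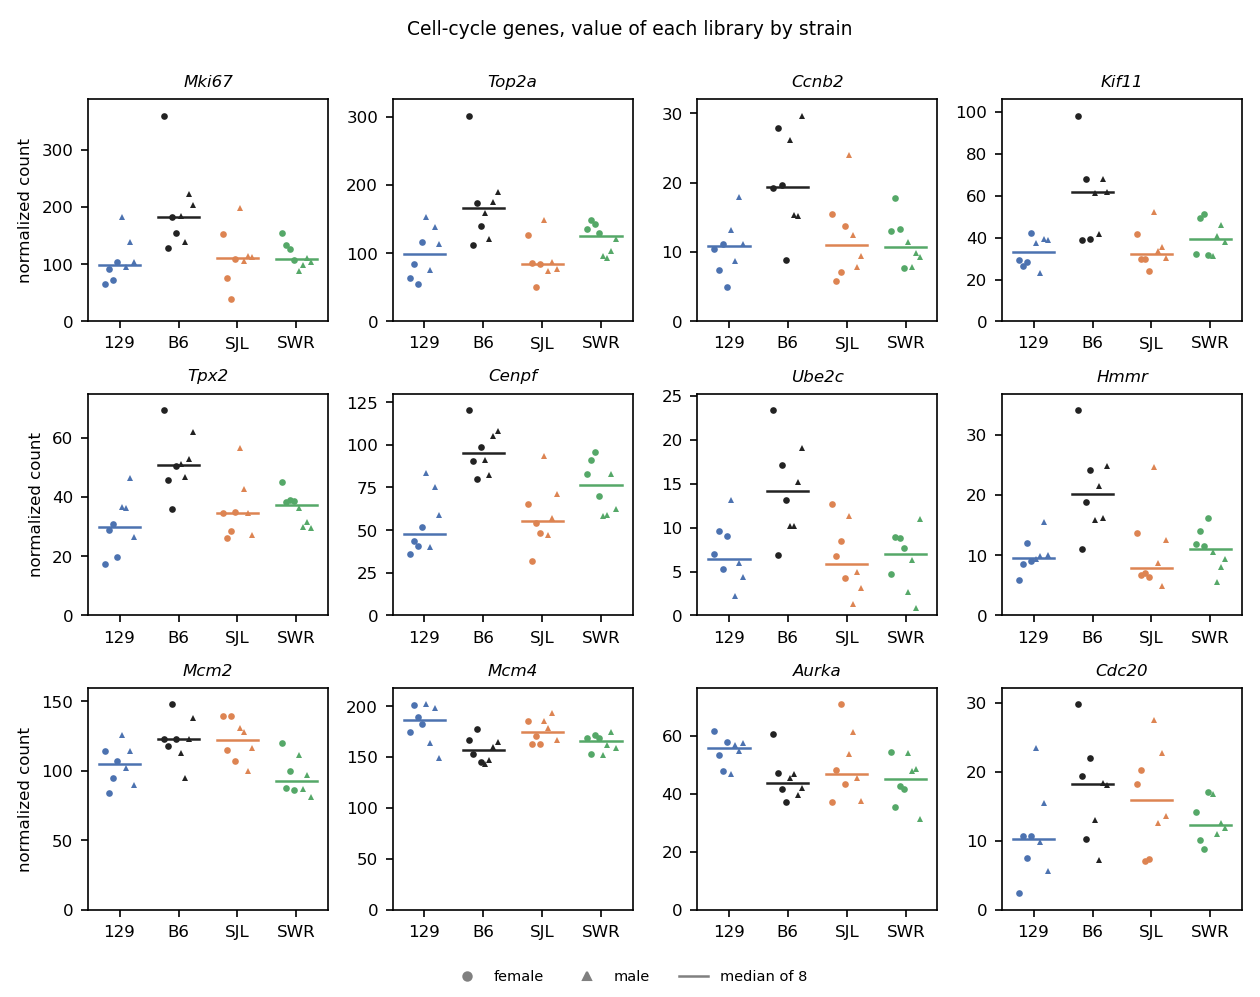
Normalized counts (y axis, linear from 0) of 12 of the genes in each library by strain, with females as circles, males as triangles and the median of the 8 libraries as a line. For Mki67 the B6 median is 183 and the others lie between 99.0 and 110.1, while Mcm4 is slightly lower in B6 than in 129 and Aurka and Cdc20 do not differ among strains at an FDR of 0.05.

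Of the 9 replication genes, 6 were higher (27.3% of all genes) and 1 was lower (25.5%) in B6 than in 129. The median LFC was 0.27. Mcm6 (chr1:128331590-128359664) stood out by being low in 129 alone. It had 60 to 101 normalized counts in 129 (median 78.4), 236 to 325 in B6 (278), 218 to 285 in SJL (257) and 257 to 308 in SWR (289). All 24 other libraries lay above all 8 of 129, with LFCs over 129 of 1.90 ± 0.09, 1.76 ± 0.09 and 1.93 ± 0.09 in B6, SJL and SWR (FDR at most 5.15e-18), and no pair of the 3 high strains was called (LFC -0.14 to 0.17, SE 0.08, FDR at least 0.0974).

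The other subunits of the same MCM2-7 ring differed less. Mcm7 was also lowest in 129, but higher in B6, SJL and SWR than in 129 by LFCs of 0.27 ± 0.06, 0.20 ± 0.06 and 0.36 ± 0.06. Mcm4 was lower in B6 (-0.21 ± 0.06) and SWR (-0.16 ± 0.06) than in 129. Mcm2 was 0.24 ± 0.10 higher in B6 than in 129, and SWR lay below B6 by -0.36 ± 0.10. Mcm3 differed only between SWR and 129 at an FDR of 0.05 (-0.34 ± 0.12), and Mcm5 only between SWR and B6 (-0.41 ± 0.17, FDR 0.0478). No other subunit passed an FC of 2 in any strain pair.

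Cdc6, the loader of the MCM ring, was highest in SJL. It had 4.12 to 14.4 normalized counts in 129 (median 9.70), 14.2 to 37.3 in B6 (19.4), 24.2 to 47.3 in SJL (29.6) and 10.2 to 19.5 in SWR (14.3). All SJL libraries lay above all of 129 (LFC 1.65 ± 0.21, FDR 1.01e-07) and of SWR (LFC of SWR over SJL -1.07 ± 0.20, FDR 7.47e-05). Cdc6 was the only 1 of the 38 with an FC above 2 between SWR and SJL (4.50% of all genes, 2.31% lower), and with no overlap between them (4.67% below and 5.54% above over all genes). Cdc45, a part of the moving replication helicase, was higher than in 129 in all 3 other strains (LFC 0.24 to 0.39). Pcna had 347 to 437 normalized counts in 129 (median 385), 495 to 611 in B6 (557), 384 to 460.3 in SJL (425) and 434 to 585 in SWR (464). The B6 libraries were all above those of 129 and SJL, at an LFC over 129 of 0.50 ± 0.06 (FDR 5.78e-09). Its near-identical pseudogene Pcna-ps2, described below, had 40.7 to 70.5 normalized counts in 129 and 49.1 to 69.6 in SJL, but at most 3.73 in B6. Whether reads placed there account for the lack of overlap was not tested.

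All 3 genes of nucleotide supply and repair were higher in B6 than in 129 (27.3% of all genes). Rrm2, a subunit of ribonucleotide reductase, had medians of 8.80 in 129 and 12.7 in B6 (LFC 0.99 ± 0.29, FDR 0.00429), and Tyms, the thymidylate synthase, 63.9 and 79.5 (LFC 0.31 ± 0.10, FDR 0.0107). Exo1 had 2.25 to 14.3 normalized counts in 129 (median 6.69), 12.2 to 28.5 in B6 (13.8), 0 to 18.4 in SJL (11.6) and 4.43 to 14.2 in SWR (10.6), with an LFC of 1.12 ± 0.35 (FDR 0.00806). Only a handful of reads per library lie behind Exo1 and Rrm2.

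Among cyclins and mitotic kinases, 3 of 7 were higher in B6 than in 129 (27.3% of all genes) and Plk1 was lower (25.5%). Ccnb1 and Ccnb2, the B-type cyclins that activate Cdk1 in mitosis, differed by LFCs of 0.98 ± 0.29 (FDR 0.00463) and 0.96 ± 0.27 (FDR 0.00288). For Cdk1 itself the LFC was 0.75 ± 0.32 (FDR 0.0481). Ccna2, the cyclin of S and G2 phase, was lower in SJL and SWR than in B6 and 129, with overlapping ranges except between SWR and B6. It had 26.7 to 63.1 normalized counts in 129 (median 37.9), 37.6 to 93.8 in B6 (39.2), 11.9 to 39.6 in SJL (18.3) and 21.3 to 36.3 in SWR (26.0). SJL lay below B6 by an LFC of -1.2 ± 0.22 (FDR 3.96e-05) and below 129 by -0.96 ± 0.22 (FDR 0.000796), and all SWR libraries lay below all of B6 (-0.88 ± 0.22, FDR 0.00138). A difference between B6 and 129 was not detected (LFC 0.24 ± 0.21, FDR 0.347). The Aurora kinases Aurka and Aurkb were not called between B6 and 129 (LFC -0.26 ± 0.13 and 0.46 ± 0.26).

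Plk1 (chr7:122159439-122169873), the Polo-like kinase that drives entry into mitosis, was the only mitotic gene of the 38 called lower in B6 than in 129. It had 33.9 to 51.2 normalized counts in 129 (median 41.1), 5.59 to 17.2 in B6 (11.3), 2.90 to 8.48 in SJL (6.58) and 4.43 to 11.8 in SWR (7.36). Every 129 library lay above every library of the 3 other strains, with LFCs over 129 of -1.88 ± 0.22, -2.85 ± 0.24 and -2.42 ± 0.23 (FDR at most 1.22e-08). The values outside 129 rest on few reads.

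Of the checkpoint and anaphase-promoting complex genes, Bub1b (chr2:118598211-118641591), which encodes the checkpoint protein BubR1, showed the largest difference of the 38. It had 8.14 to 17.8 normalized counts in 129 (median 10.2), 80.1 to 185 in B6 (131), 9.66 to 24.7 in SJL (12.7) and 7.09 to 20.3 in SWR (16.8). Every B6 library lay above every other library. The LFC was 3.49 ± 0.22 for B6 over 129 (FDR 1.84e-15), -3.14 ± 0.21 for SJL over B6 and -3.16 ± 0.21 for SWR over B6, and no pair of the 3 low strains was called (FDR at least 0.276).

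The related checkpoint kinase Bub1 differed less. It had 0.749 to 12.4 normalized counts in 129 (median 7.01), 10.2 to 24.2 in B6 (13.7), 5.27 to 13.4 in SJL (7.93) and 7.09 to 16.2 in SWR (12.3), and B6 exceeded 129 by an LFC of 1.23 ± 0.29 (FDR 0.000739). Ube2c, the ubiquitin-conjugating enzyme of the anaphase-promoting complex, had 2.19 to 13.1 normalized counts in 129 (median 6.47), 6.94 to 23.4 in B6 (14.2), 1.25 to 12.7 in SJL (5.85) and 0.899 to 11 in SWR (6.99). It was higher in B6 than in 129 (LFC 1.04 ± 0.35), and lower in SJL and SWR than in B6 (-1.15 ± 0.35 and -1.2 ± 0.35). For its activator Cdc20 the LFC of B6 over 129 was 0.66 ± 0.32 (FDR 0.0800).

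All 5 centromere genes were higher in B6 than in 129 (27.3% of all genes), with a median LFC of 1.0. Hjurp (chr1:88262471-88277633) had 1449 to 1798 normalized counts in 129 (median 1639), 4123 to 6333 in B6 (5323), 1364 to 1875 in SJL (1571) and 1773 to 2159 in SWR (1833). The B6 mean was 132 ± 24.0 TPM (SD, n = 8), against 34.7 ± 4.63 in 129, and all B6 libraries lay above all others. The LFC was 1.71 ± 0.07 for B6 over 129 (FDR 5.79e-21), -1.73 ± 0.07 for SJL over B6 and -1.52 ± 0.07 for SWR over B6. B6 female 1, the highest B6 library for most mitotic genes, was the lowest one for Hjurp (4123).

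Its cargo Cenpa had 4.43 to 20.3 normalized counts in 129 (median 8.09), 15.2 to 33.5 in B6 (27.1), 11.6 to 23.6 in SJL (14.8) and 17.1 to 23.9 in SWR (21.3). It was lowest in 129, by LFCs of 1.5 ± 0.21 in B6 (FDR 4.26e-07), 0.77 ± 0.22 in SJL and 1.16 ± 0.21 in SWR. Cenpe and Cenpf, large kinetochore proteins, and Birc5, the survivin of the chromosomal passenger complex, exceeded 129 in B6 by LFCs of 0.67 ± 0.18, 0.86 ± 0.17 and 1.0 ± 0.32.

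Of the 8 spindle and cytokinesis genes, 7 were higher in B6 than in 129 (27.3% of all genes, median LFC of the 8 0.82). Prc1 (chr7:80294450-80316259), which bundles the microtubules of the central spindle, had 37.2 to 72.1 normalized counts in 129 (median 54.6), 109.5 to 156 in B6 (122), 83.2 to 114 in SJL (98.4) and 83.3 to 111 in SWR (90.3). All 24 other libraries lay above those of 129, by LFCs of 1.2 ± 0.11, 0.85 ± 0.11 and 0.76 ± 0.11 (FDR at most 7.15e-07). Kif11, the motor that separates the spindle poles, and Tpx2, its assembly factor, differed between B6 and 129 by LFCs of 0.87 ± 0.18 and 0.78 ± 0.17.

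Kif23 (chr9:61915905-61946774), the kinesin of the central spindle and a partner of Prc1 in cytokinesis, was instead low in the Swiss strains. It had 56.0 to 83.7 normalized counts in 129 (median 75.7), 44.7 to 71.7 in B6 (61.0), 7.73 to 27.5 in SJL (13.9) and 13.3 to 23.7 in SWR (20.5). All libraries of 129 and B6 lay above all of SJL and SWR. The LFC over 129 was -2.31 ± 0.17 in SJL (FDR 1.68e-13) and -1.93 ± 0.16 in SWR (FDR 6.47e-12), and that of B6 was -0.29 ± 0.15 (FDR 0.101).

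Ect2, the exchange factor that places the cleavage furrow, had 67.9 to 118 normalized counts in 129 (median 85.0), 113 to 152 in B6 (122), 67.0 to 109 in SJL (97.0) and 58.4 to 87.5 in SWR (73.8). It was higher in B6 than in 129 (LFC 0.52 ± 0.10, FDR 7.21e-05), and SWR was below B6 by -0.81 ± 0.10 (FDR 8.81e-08). Nusap1 and Hmmr, microtubule-binding proteins of the spindle, were both 1.04 higher in B6 than in 129 on the LFC scale (SE 0.24 and 0.28). Nusap1 had 10.7 to 16.8 normalized counts in 129 (median 14.7), 8.78 to 57.6 in B6 (25.8), 9.48 to 29.0 in SJL (14.3) and 12.4 to 21.6 in SWR (16.2). Hmmr had 5.81 to 15.5 in 129 (median 9.60), 11.1 to 34.1 in B6 (20.1), 4.92 to 24.7 in SJL (7.93) and 5.49 to 16.2 in SWR (11.1). Kif20a, another kinesin of cytokinesis, had an LFC of 0.73 ± 0.26 (FDR 0.0207) while its F test over the strains was not called.

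**Figure D3:**
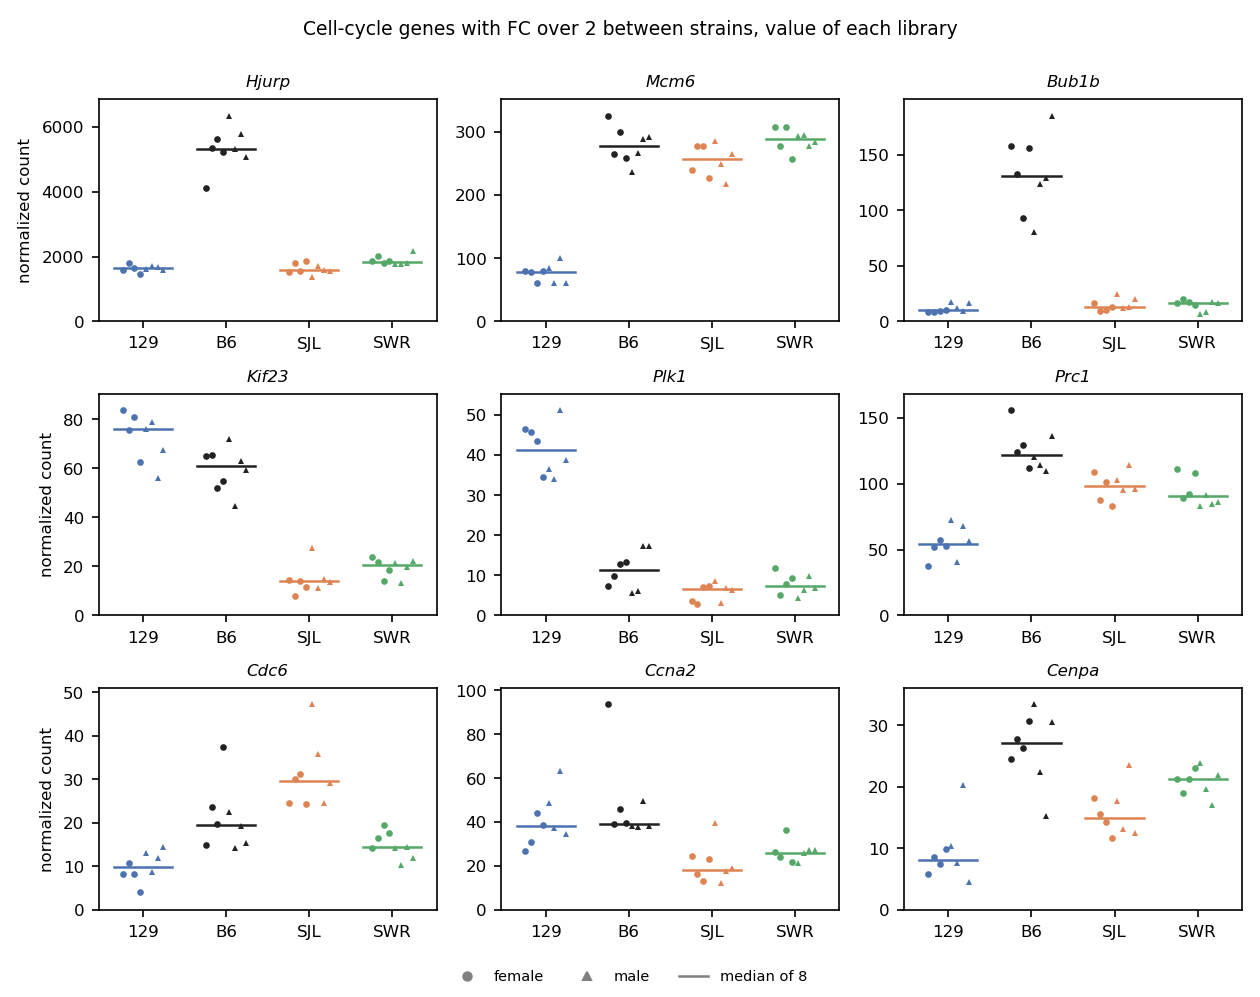
Normalized counts (y axis, linear from 0) in each library by strain for 9 genes with an FC above 2 in at least 1 strain pair, with females as circles, males as triangles and the median of 8 as a line. Hjurp and Bub1b are high in B6 alone, Mcm6 and Prc1 are low in 129, Plk1 is high in 129 alone, and Kif23 is low in SJL and SWR.

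In all, 14 of the 38 passed an FC above 2 in at least 1 strain pair, where 19.8% of all genes did. They were Bub1, Bub1b, Ccna2, Cdc6, Cenpa, Exo1, Hjurp, Hmmr, Kif23, Mcm6, Nusap1, Plk1, Prc1 and Ube2c. For 5 of the strongest (Hjurp, Bub1b, Mcm6, Kif23 and Plk1) the libraries fell into separate high and low strains, whereas Mki67, Top2a and most mitotic genes had overlapping ranges.

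Genes of other tissues were also read at different levels in the strains. Summed over 188 genes of families such as hair keratin-associated proteins, caseins and oocyte genes, CPM (counts scaled to the library total) was 0.00 to 0.411 in 129, 1.18 to 26.9 in B6, 0.797 to 7.49 in SJL and 0.298 to 9.97 in SWR. If such reads were spread evenly over exons, they would make up 2.46% of the B6 mean of Mki67 and 24.1% of that of Exo1, the largest share of the 38. With the log2 of this CPM as a term in the edgeR fit, a setting added after seeing the data, 10 of the 38 were called between B6 and 129 (9 higher, 1 lower; 20.9% of all genes) and the median LFC was 0.57. Hjurp, Bub1b, Mcm6, Plk1, Prc1, Pcna, Cenpa, Nusap1, Kif11 and Mcm7 were still called, whereas Mki67 (LFC 0.92, FDR 0.0718) and Top2a (0.91, FDR 0.0528) were not. The part of these reads in the strain differences cannot be told apart from the strain, as the 129 libraries lay nearly all below the others. Between SJL and B6, the same term left 25 of the 38 called, and the share of all genes with the term is not given here for this pair.

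Cell type markers were compared beside the cell-cycle genes. Over all genes, 27.3% were higher and 25.5% lower in B6 than in 129. All 5 macrophage markers were higher in B6 than in 129 (median LFC 1.34), with summed normalized counts of 929 to 1233 in B6 and 405 to 589.6 in 129, and so were all 5 fibroblast markers (median LFC 0.54). Of 4 basal cell markers 1, Trp63, was higher (1.34 ± 0.26), and all 4 markers of mature vomeronasal neurons were lower (median -0.44). The summed precursor markers of red cells and granulocytes, cells that divide in bone marrow, stayed at or below 35.1 and 37.5 normalized counts in every library. The part of these cell types in the B6 excess was not tested.

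Does sex change the cell-cycle genes? Over all strains, 0 of the 38 differed between 16 males and 16 females at an FDR under 0.05 with edgeR, where 0.283% of all genes did. The LFCs of males over females ranged from -0.37 to 0.35, and 0 had an unadjusted p under 0.05 with edgeR or with DESeq2. Ect2 came nearest, with an LFC of -0.14 ± 0.07 (FDR 0.587 by edgeR).

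Within the strains 0 of the 38 were called either (129 0.0816% of all genes, B6 0.103%, SJL 0.125%, SWR 0.348%). Unadjusted, 6 had a p under 0.05 in 129, all with the higher mean in males (Cdk1, Cenpf, Tpx2, Mki67, Top2a and Cdc6), and 1 in B6 (Kif20a, lower in males). The library 129 male 1, which stood apart, was the highest of 129 for Cdk1, Cenpf, Mki67 and Top2a. DESeq2 gave 5 and 1, and both tools gave 0 in SJL and SWR. The largest of these was Cdk1 in 129, with an LFC of 1.31 ± 0.44 (FDR 0.481 by edgeR). No interaction of sex and strain was called among the 38 (4 with an unadjusted p under 0.05 by edgeR and by DESeq2; 0.0163% of all genes called). A sex difference in these genes was not detectable with 4 mice per group.

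Which genes rose and fell together from mouse to mouse? The log2 of the normalized count + 1 was centred in each of the 8 groups (strain by sex), and its correlation with Mki67 over the 32 libraries was compared with 100000 shuffles within groups. Of the 37 other genes, 17 were correlated with Mki67 at an FDR under 0.05, all positively, and 11 by Spearman's rho. The share of all genes passing this limit was not computed, here or for the markers below. Over the 37, r had a median of 0.39 and ran from -0.29 to 0.90.

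Top2a followed Mki67 most closely (r = 0.90, rho = 0.89, FDR 0.00037 by permutation, the smallest these shuffles can give, and the same direction in 27 of 32 libraries). Its r was 0.86 without SJL female 3 and B6 female 1, the libraries farthest from the median of Mki67. Ccna2 came next (r = 0.78, rho = 0.80, permutation FDR 0.00111, 25 of 32), followed by Ccnb1 (r = 0.64, rho = 0.72), Kif11 (r = 0.63, rho = 0.63) and Cenpf (r = 0.59, rho = 0.68), with r of 0.69, 0.61, 0.65 and 0.83 without these libraries.

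Several genes with strong strain patterns were not called as correlated with Mki67 within groups. For Hjurp r was -0.29 (permutation FDR 0.3), for Plk1 0.04, for Pcna -0.02 and for Cdc6 -0.21, none of them past the limit. Kif23 (0.24) and Mcm6 (0.30) were not past it either, while Bub1b was (r = 0.44, rho = 0.42, permutation FDR 0.036). With the libraries farthest from the median of Mki67 left out, r was 0.41 for Plk1, 0.46 for Kif23 and 0.44 for Mcm6. That of Bub1b was then 0.43, while Hjurp had -0.30, Pcna -0.12 and Cdc6 0.06. A lack of correlation with Mki67 is thus not shown for Plk1, Kif23 and Mcm6.

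The correlations lean on some of the libraries. Without B6 female 1 and 129 male 1 together 3 of the 37 were called, and without the lane 1 libraries of all groups, which include them, 1. Leaving out lane 2 or lane 4 left 6, and leaving out lane 3 left 17.

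Of 60 marker genes of cell types, 9 were correlated with Mki67 within groups (permutation FDR under 0.05), all positively. Neurod1, the transcription factor of late neuronal progenitors, had r = 0.70 and rho = 0.78 (FDR 0.0006, the same direction in 28 of 32 libraries, r = 0.77 without the farthest libraries), and Insm1, a factor of dividing neuronal progenitors, r = 0.67 and rho = 0.66 (FDR 0.00816). The basal cell markers Trp63, Krt15 and Krt5 had r of 0.60, 0.54 and 0.49. Ltf and Lcn2, which neutrophil precursors and glands make, had r of 0.74 and 0.66, and the endothelial genes Pecam1 and Cdh5 0.66 and 0.62. For Sox2 and Omp r was -0.35 and -0.36 (FDR 0.301 and 0.205). Without B6 female 1 and 129 male 1, 3 of the 60 were called.

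**Figure D4:**
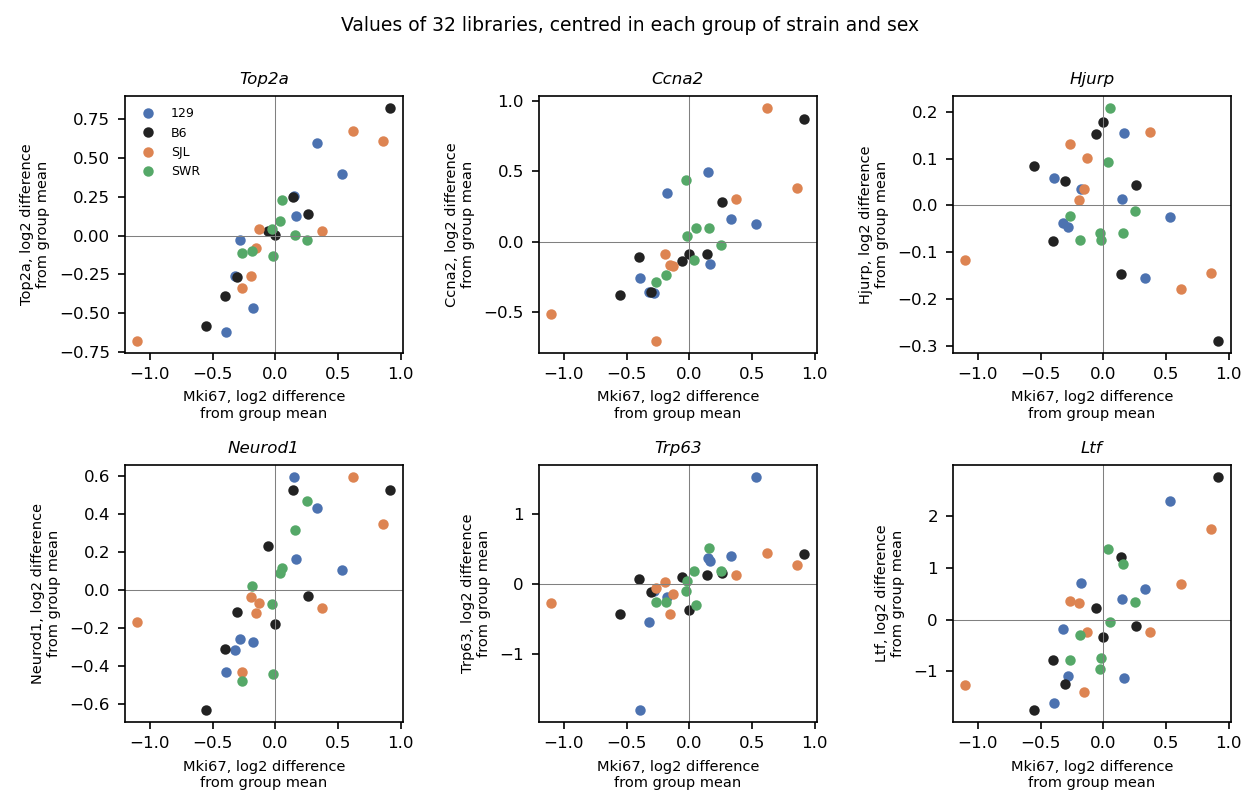
Centred log2 normalized counts of Top2a, Ccna2, Hjurp, Neurod1, Trp63 and Ltf (y axes) against Mki67 (x axis) for the 32 libraries, coloured by strain; each value is the difference from the mean of its group of strain and sex. Top2a (r = 0.90) and Neurod1 (r = 0.70) rise with Mki67, and Hjurp (r = -0.29) does not.

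Genes next to the strongest strain-dependent members were read as well, and were chosen after the values had been seen. Plk1 and Ern2, which codes for a stress sensor of the endoplasmic reticulum of mucus-making cells, lie 20 bases apart on opposite strands. Ern2 had 89.9 to 146 normalized counts in 129 and at most 12.5 in any library of the other strains, with LFCs over 129 of -4.77 ± 0.36 in B6, -5.61 ± 0.38 in SJL and -6.54 ± 0.42 in SWR. The high strain was thus 129 for both neighbours. Dars, an aspartyl-tRNA synthetase 4043 bases from Mcm6 on the same strand, was lower in 129 as well (580.2 to 727 normalized counts, against 839 to 1227 elsewhere), by LFCs of 0.66 to 0.70. Lct, the lactase gene 3272 bases away on the other side, was also lower in 129 but reached at most 26.4 normalized counts in any library.

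Hjurp lies 182 bases from Mroh2a on the opposite strand. Mroh2a had 3.49 to 12.7 normalized counts in 129 and 34.1 to 176 in B6 (LFC 3.25 ± 0.28), but SJL and SWR were also higher than 129 (2.11 ± 0.29 and 2.27 ± 0.28), unlike for Hjurp. The other neighbour, Trpm8 at 28 bases, had at most 30.5 normalized counts in any library. Around Bub1b, Bmf (48524 bases away, opposite strand) and Pak6 (21712 bases away, same strand) were higher in B6 than in 129 by LFCs of 1.17 ± 0.21 and 0.51 ± 0.11. Next to Kif23, the ribosomal gene Rplp1 (1363 bases away) was lower than in 129 in all 3 strains, B6 included (-0.50 ± 0.07). Next to Prc1, Unc45a (9033 bases away) was higher in SJL and SWR but not in B6 (0.97 ± 0.06, 0.69 ± 0.06 and -0.10 ± 0.07).

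**Figure D5:**
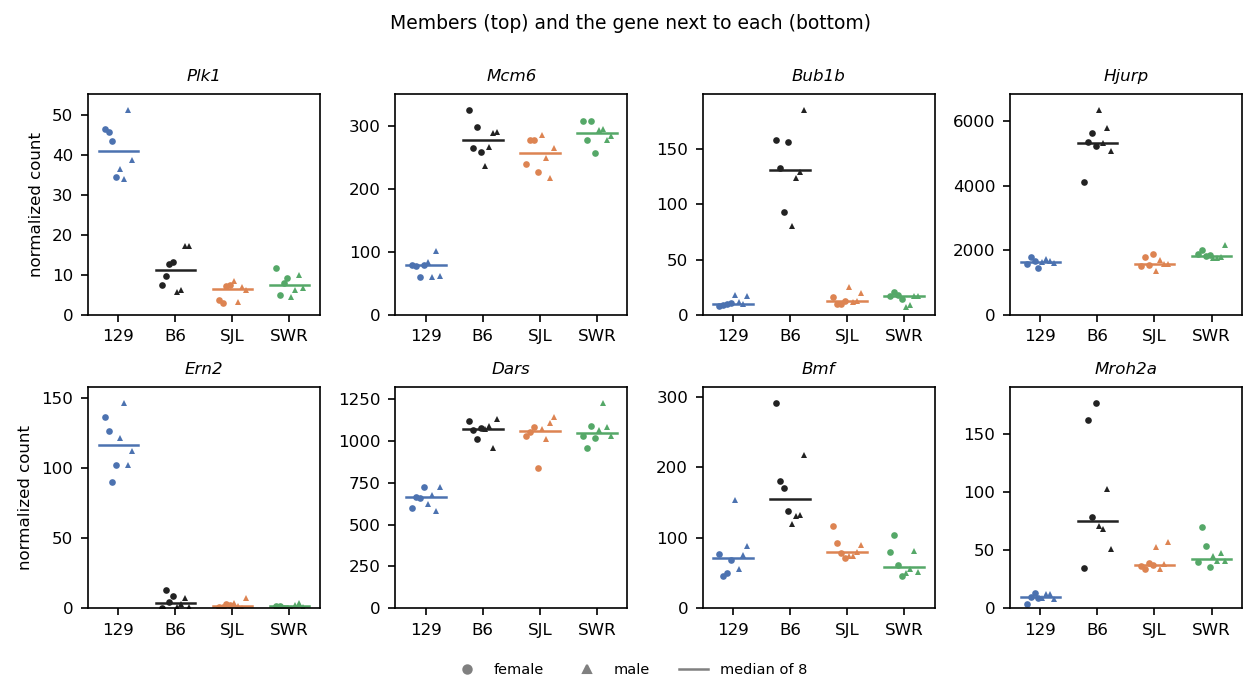
Normalized counts (y axes, linear from 0) in each library by strain for Plk1, Mcm6, Bub1b and Hjurp (top) and for a neighbouring gene of each, Ern2, Dars, Bmf and Mroh2a (bottom), with females as circles, males as triangles and the median of 8 as a line. Plk1 and Ern2 are high in 129, Mcm6 and Dars are low in 129, Bub1b and Bmf are highest in B6, and Mroh2a is higher than in 129 in all 3 other strains.

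Some of the genes have near-identical copies, so that uniquely placed reads may not count them fully. Pcna shares 99.2% identity over 781 bases with the pseudogene Pcna-ps2, which had 40.7 to 80.0 normalized counts in 129, SJL and SWR but at most 3.73 in B6. Ccnb1 has 5 copies at 95% identity or more over at least 200 bases (Ccnb1-ps, Gm12856, Gm4870, Gm7483 and Gm8416), and Cdc6, Mcm7, Rrm2 and Mki67 have 1 each (Gm9430, Gm5487, Gm48455 and Gm44521). Tyms shares a repeat with many genes. Exons of Ccna2, Kif20a, Prc1, Mcm7, Nusap1, Cdc45, Ube2c, Cdc20 and Plk1 overlap an annotated gene on the opposite strand (Exosc9, Cdc23, Rccd1, Ap4m1 and Cops6, Oip5, Ufd1, Tnnc2, Elovl1 and Gm44985), which the stranded counting keeps apart. On the same strand Mcm7 holds Mir25 and Mir93 and Top2a holds the small RNA Gm23451. All strains were placed on the B6 genome, and what this does to the strain differences was not tested.

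Other genes of the cycle were read from lists. Of 57 further mitosis genes 52 were tested, and 25 were higher and 2 lower in B6 than in 129 (27.3 and 25.5% of all genes). Pttg1, the securin that guards sister chromatids, had 0 to 9.53 normalized counts in 129 (median 3.31), 229 to 272 in B6 (251), 16.7 to 24.1 in SJL (21.9) and 16.2 to 27.0 in SWR (21.8). B6 was above all others and 129 below them, with an LFC of B6 over 129 of 5.89 ± 0.18. The cytokinesis scaffold Anln was likewise highest in B6 (LFC over 129 1.44 ± 0.10), and the kinesin Kif15 in SWR (1.17 ± 0.09 over 129). Dlgap5, Kif14, Kif2c, Melk, Nuf2, Pbk and Ttk passed an FC of 2 between B6 and 129 (LFC 1.05 to 1.56), and Ndc80 between SWR and B6 (-1.37 ± 0.24).

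Of 33 further replication genes, 9 were higher and 2 lower in B6 than in 129, which for the higher ones is the share of all genes (27.3% higher, 25.5% lower). Dbf4, the partner of the replication kinase Cdc7, was 0.78 ± 0.12 higher, whereas Dut, the dUTPase, was lower (-0.34 ± 0.07). Orc1 and Ticrr, which act at replication origins, passed an FC of 2 on few reads (1.15 ± 0.48 and 1.49 ± 0.43).

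Of 9 G1 cyclins and kinases, 6 were higher and 1 lower in B6 (27.3 and 25.5% of all genes), among them Cdc25a, the phosphatase that releases Cdk2 (1.22 ± 0.09), the D-type cyclin Ccnd1 (1.26 ± 0.17) and its kinase Cdk6 (1.0 ± 0.11). Of 19 E2F, pocket protein, MuvB, B-Myb and FoxM1 genes, 5 were higher and 7 lower, near the shares of all genes. Rb1, the retinoblastoma protein, had 3640 to 4538 normalized counts in 129 and 2196 to 2567 in B6 (-0.83 ± 0.04), E2f2 had an LFC of -1.0 ± 0.17 and E2f8 1.72 ± 0.46 higher, and Rbl1 was low in SWR (-1.01 ± 0.08 below B6). Of 6 cyclin-dependent kinase inhibitors tested, 2 were higher and 2 lower. Cdkn2c was lower in SJL and SWR than in 129 (-0.83 ± 0.14 and -0.64 ± 0.13), Cdkn2b was higher in SWR than in 129 (0.98 ± 0.16), and Cdkn1b was lower in B6 than in 129 (-0.18 ± 0.05).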

How the data were processed

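Total RNA of single VNO neuroepithelia was sequenced by the authors as stranded, ribodepleted libraries in 125 bp pairs. Per the authors, reads were trimmed with Trim Galore, placed with STAR on GRCm38 (the B6 genome) with Ensembl 87 genes, and the deposited count of a gene is its number of uniquely placed, strand-matched read pairs. The deposited normalized signal is that count scaled by the authors with a DESeq2 size factor for each library. The paper names the 129 mice 129Sv/J where the labels have 129S6/SVEV, and the labels were followed. The 2 tables hold 49671 genes for 32 libraries, and 0 columns were left unused.

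Differential expression was tested on the counts with edgeR 4.0.16 (TMM, filterByExpr over the 8 groups, quasi-likelihood F test) in R 4.3.3 with limma 3.58.1. All 38 genes passed the filter, the whole table of 18382 genes was fitted, and FDR values are by Benjamini and Hochberg over it. Strains were compared with sex as covariate and sexes with strain as covariate, and sexes within strains and their interaction in a model of group means. SE values are approximate (LFC divided by the root of F). Calls were an FDR under 0.05, with or without an absolute LFC above 1 (sexes 0.01 with the LFC limit). A p-value sets a difference against the spread between mice of these groups. Replicate pairs of a group (48) differed beyond counting noise, with chi-square per degree of freedom of 2.71 to 48.1, so all 32 were kept as separate samples. Depth limits the low genes, and counting error is not the spread between mice.

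Correlations used Python 3.11.15. TPM values used exon lengths of the annotation, and copies were sought with blastn 2.17.0 (95% identity, 200 bases). The members and lists were chosen with earlier results of these data known. Named genes are Mki67, Top2a, members with an FC above 2 or among the 10 smallest FDR values of the strain test, the leading 3 genes and all with an FC above 2 of each pathway list, and the most abundant gene of each marker list. Alternatives were DESeq2 1.42.0, its size factors, no filter, the lane number as a replicate block, each library or lane left out, another pseudocount than 1, and log2 CPM. The steps were tested on simulated data. A few genes that this rule or the marker lists include are not reported here.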

Additional observations from a re-analysis of the deposited data

Results flagged for a closer look

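In 17 of 152 combinations of a gene and a strain, the highest library stood apart by Dixon's rule. Its gap to the next exceeded the critical share of the range of the 8. A rate of about 1 in 20 would apply to independent, normally distributed values. These were untransformed normalized counts of both sexes, and genes of the same library are not independent, so the 17 cannot be set against chance. B6 female 1 held 5 of these. They were Mki67 with 359 normalized counts (next 222), Top2a with 301 (189), Ccna2 with 93.8 (49.7), Cdk1 with 53.3 (25.7) and Aurka with 60.8 (47.2). SJL male 1 held another 5, namely Ccna2 with 39.6 (next 24.5), Ccnb1 with 26.8 (15.0), Cdk1 with 27.5 (17.3), Kif23 with 27.5 (14.8) and Hmmr with 24.7 (13.6).

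The other 7 were spread over 6 libraries. In 129 male 3, Ccnb1 was 22.6 (next 12.2) and Cenpa 20.3 (10.3), and in 129 male 1, Rrm2 was 15.0 (9.53). In B6 female 4, Cdc6 was 37.3 (23.6). In SWR, Pcna was 585 in male 2 (496), Ccna2 36.3 in female 3 (27.1) and Ccnb1 24.1 in female 2 (16.2). On this untransformed scale, every one of the 17 was the highest, not the lowest, library of its strain.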

How the results depend on the processing

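With DESeq2's test or size factors, without a filter on low counts and with the replicate number as a block, each count of called genes stayed within 1.5 times its value. With the block, 31 of the 38 were called between B6 and 129 and the median LFC was 0.77. Libraries of the same lane in different groups had correlated deviations above 0.1 in 22 of 112 pairs (r -0.29 to 0.48, median -0.01). Between different lanes the median r was 0.01. A median over all genes cannot tell whether the number marks a batch. With the term for reads of other tissues, which was added after seeing the data, 10 genes were called between B6 and 129 (7 with an FC above 2). The share of all genes was 20.9%. Between SWR and 129 it left 7 called, for which the share of all genes is not given here.

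Without B6 female 1, 129 male 1 and SJL male 1 together, also added later, SJL and B6 differed with an FC above 2 in 8 genes, SWR and SJL in 10 at any FC and in 0 with an FC above 2, and 3 members and 3 markers were correlated with Mki67. Counts of 3 and 3 were also left without B6 female 1 and 129 male 1. Leaving out libraries singly, by lane or as these 3, the genes called ranged from 25 to 34 (strain F test), 25 to 33 (B6 and 129), 8 to 13 (SJL and 129), 10 to 17 (SWR and 129), 17 to 26 (SJL and B6), 13 to 21 (SWR and B6) and 4 to 10 (SWR and SJL). With an FC above 2 they ranged from 9 to 16, 4 to 5, 4 to 5, 4 to 12, 3 to 6 and 0 to 1 in the same order of pairs, and from 11 to 18 in at least 1 pair. The 12 between SJL and B6 came without SJL male 1, which also gave 8 calls between SWR and SJL. The single FC call between SWR and SJL, Cdc6, was lost without SJL male 1, SWR male 2, lane 1 or lane 2. The 10 between SWR and 129 came without lane 2 and without lane 3. Correlated with Mki67 were 1 to 17 members and 1 to 9 markers, and r of Rrm2 ran from -0.18 without lane 1 to 0.68 without lane 2 (0.53 with all). Sex comparisons gave 0 in every setting. The causes were not tested.

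Among single genes over all settings, no LFC with a call in either fit changed sign, 295 values lost their call and 91 gained one. LFCs without a call did change sign. Of those of SJL over 129, 26 were above 0 with all libraries and 18 without lane 1. Genes under about 20 normalized counts, such as Exo1, Birc5, Ube2c and Bub1, rest on few reads, and intervals for counting alone would be wide.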

Other observations

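Replication-dependent histone genes, whose messages are made in S phase, were read by their symbols (70 listed, 57 tested). Of these, 31 were higher and 7 lower in B6 than in 129 at an FDR under 0.05 (edgeR), where 27.3 and 25.5% of all genes were. Hist1h2al had 282 to 442 normalized counts in 129, 310.0 to 411 in SJL and 351 to 511 in SWR, but 0 to 4.16 in B6 (LFC of B6 over 129 -7.21 ± 0.19). Hist1h4m was the reverse, with 49.4 to 119 in B6 and at most 4.83 elsewhere. Hist2h2be had 6119 to 7663 in B6 and 2932 to 3808 in 129 (LFC 1.04 ± 0.06). In all, 17 histone genes passed an FC above 2 in at least 1 strain pair (19.8% of all genes). Highest in B6 were Hist1h2ab, Hist1h2ag, Hist1h2bj, Hist1h2bm, Hist1h2bn, Hist1h3a, Hist1h3b, Hist1h3c, Hist2h2ac, Hist3h2ba and Hist3h2bb-ps, and Hist1h4a, Hist1h4i and Hist2h2aa2 were lowest there. Histone genes have close copies, and unique placement may split their reads.

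The most abundant gene of each marker list, as mean normalized count over the 32 libraries, was Krt5 for basal cells (100.5), Stmn2 for immature neurons (1256) and Adcy3 for main olfactory neurons (797). It was Fabp7 for ensheathing glia (224), Pecam1 for endothelium (87.9), Col1a2 for fibroblasts (5582), Ibsp for bone and cartilage (145) and Hbb-bs for red blood cells (153). Among the blood cell lists it was Ltf for neutrophils (10225), though glands make Ltf as well. It was Csf1r for macrophages (256), Vpreb3 for B cell precursors (26.7), Pf4 for megakaryocytes (19.2) and Cd4 for T lymphocytes (18.2). Prtn3, Ermap and Cd79b led the granulocyte precursors, erythroid precursors and B lymphocytes with 11.9, 5.50 and 5.47.

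Between B6 and 129 the other marker lists were called as follows, where 27.3% of all genes were higher and 25.5% lower. For immature neurons 1 of 3, for bone and cartilage 2 of 6, for red blood cells 1 of 5 and for megakaryocytes 1 of 2 tested genes were higher, with none lower. Of the neutrophil genes 1 of 4 tested, S100a8, was higher (1.86 ± 0.40), and Ltf and Lcn2 were not called. The tested genes of erythroid precursors (1), T lymphocytes (1) and B lymphocytes (2) were higher. Endothelium, B cell precursors and main olfactory neurons had 1 gene higher and 1 lower, ensheathing glia had 1 lower and granulocyte precursors 0 of 1 called.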
